A study of Mus musculus with 6 samples.

Results

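Amino acid transporter genes of mouse macrophages were followed across 2 ways of growing these cells with cancer cells. The genes were chosen by name: every row of the deposited table with a symbol in the solute carrier families Slc1a, Slc6a, Slc7a, Slc36a, Slc38a or Slc43a, plus Slc3a1 and Slc3a2, which gave 61 of 56691 genes. The samples were bone marrow-derived macrophages induced with M-CSF, the growth factor that makes macrophages from marrow cells, and sorted after growth beside mEC25 cells, which the labels call a cancer cell line. In the contact group (3 libraries) the macrophages touched the mEC25 cells, and in the transwell group (3 libraries) they did not. All 6 libraries share the marrow source, the M-CSF induction and the presence of mEC25, and the labels name no strain, genotype, age or culture time and hold no library of macrophages grown alone. They do not say whether replicates were separate cultures or animals, so the p-values measure the spread between these libraries, which may be technical.

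Cells cannot make all amino acids, and charged or polar ones do not cross membranes unaided, so each class needs carriers. Some carriers work as heterodimers, in which the heavy chain Slc3a2 (CD98) brings one of several Slc7 light chains to the cell surface. Others take up neutral amino acids together with sodium (Slc1, Slc6 and Slc38 families), carry arginine and lysine (the cationic carriers of Slc7), or sit in the lysosome, where they return amino acids from degraded protein and report their supply to the growth-controlling kinase complex mTORC1. In macrophages arginine entry feeds nitric oxide synthase and arginase, and cystine entry through Slc7a11 feeds the antioxidant glutathione.

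The counts of a contact library summed to between 20911880 and 22563835, and those of a transwell library to between 18173192 and 18895818. The label of the cells was checked on 16 macrophage markers, all of which were tested and whose summed level was 17447 to 19297 FPKM (fragments per kilobase of exon, scaled to the library total) in contact and 18602 to 19818 in transwell libraries. Most of that sum is Lyz2, and single markers differed: 5 were called higher and 5 lower, among them Cd14 (log2 change 1.49) and Csf1r (0.28) on one side and Fcgr1 (-1.91), Adgre1 (-1.20) and Cd68 (-0.70) on the other, named after their values were seen. Of 34 epithelial markers 28 were tested, 27 were higher in contact and 0 lower, and their summed level was 1166, 1754 and 1000 FPKM in contact replicates 1, 2 and 3 against 9.57 to 10.8 in transwell libraries, where 5 of the 34 had no count. Epithelial marker transcripts were thus found in every contact library, most in replicate 2, at 1.75 times the level of replicate 3. Fibroblast markers were higher in 7 of 9 cases (31.9 to 60.8 against 9.79 to 18.6 FPKM), and of 9 tested neutrophil markers 3 were higher and 1 lower (847 to 1199 against 727 to 1366 FPKM). Endothelial markers gave 3 rises and 1 fall of 4 (12.5 to 14.9 against 7.25 to 7.71 FPKM), dendritic cell markers 1 and 1 of 4 (13.7 to 15.1 against 10.6 to 13.5), T cell markers 1 rise of 2 (4.29 to 6.18 against 2.12 to 2.77) and the B cell marker that was tested a fall (5.01 to 6.75 against 6.89 to 9.4). The ratio of FPKM in contact replicate 2 to contact replicate 3 is therefore given below for the called transporters, singly or as a range. What part these other transcripts have in any result was not tested. In bulk RNA a change in the share of a cell type and a change of RNA per cell cannot be told apart.

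Of the 61 transporter genes, 39 had 30 or more counts in all and are called measured, from Slc7a15 with 33 just inside to Slc6a11 with 25 just outside. Of these, 33 passed the filter on low counts and were tested. A gene that is high in only 1 group can pass that filter through this group alone. Among the measured genes that were not tested, Slc6a17, Slc7a4, Slc7a14, Slc7a15 and Slc36a2 were each below 0.2 FPKM in every library. The 22 genes under the limit were Slc1a1, Slc1a6, Slc1a7, Slc3a1, Slc6a2, Slc6a3, Slc6a5, Slc6a7, Slc6a11, Slc6a14, Slc6a16, Slc6a18, Slc6a21, Slc7a9, Slc7a10, Slc7a12, Slc7a13, Slc36a3, Slc38a5, Slc38a8, Slc38a11 and Slc43a1, of which 10 had no count.

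Some transporter transcripts were higher and others lower in contact than in transwell libraries. Transcripts of the arginine and lysine carrier Slc7a1, the cystine carrier Slc7a11, the neutral amino acid carrier Slc38a2 and the serine carrier Slc1a4 were higher. Those of the arginine carriers Slc7a2 and Slc7a7, the lysosomal carriers Slc36a1 and Slc38a7, and the betaine and taurine carriers Slc6a12 and Slc6a6 were lower. The Slc38a7 call did not hold in every alternative fit. With edgeR's quasi-likelihood test at a Benjamini-Hochberg adjusted p under 0.05, 19 of the 33 tested genes (57.6%) were called, 7 higher (21.2%) and 12 lower (36.4%). Of all 14113 tested genes 37.5% were called, 21.4% higher and 16.1% lower. The share of rises was near that background, and the share of falls was above it. At least 2-fold changes were fitted for 5 rises and 4 falls, against 11.8% and 2.38% of all genes, and the median log2 change was -0.05 over the 33 genes and 0.03 over all.

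Of the 7 rises, 3 were in genes with a mean of at least 1 FPKM in transwell libraries (Slc7a1, Slc7a11 and Slc38a2) and 4 in genes below it. Of the 12 falls, 11 were in genes with at least that level. In FPKM the groups did not overlap for 12 genes with contact higher and 11 with contact lower, against 35.8% and 15.3% of all tested genes. FPKM are scaled to the library total alone, while the test also scaled each library by TMM (trimmed mean of M values), which moved contact against transwell by 0.12 on the log2 scale. Some genes thus stand a little higher in FPKM without a change in the test. The split depended on the scaling and the filter. On log2(FPKM + 1), limma called 7 rises and 8 falls (27% and 10.1% of all genes), and after quantile normalization 5 and 14 (16.9% and 24.2%). With no filter beyond 1 count, edgeR called 11 rises and 13 falls (12.5% and 8.99% of all genes), and among genes with at least 1 FPKM in transwell libraries it called 3 and 11 (17.9% and 16.7%).

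**Figure D1:**
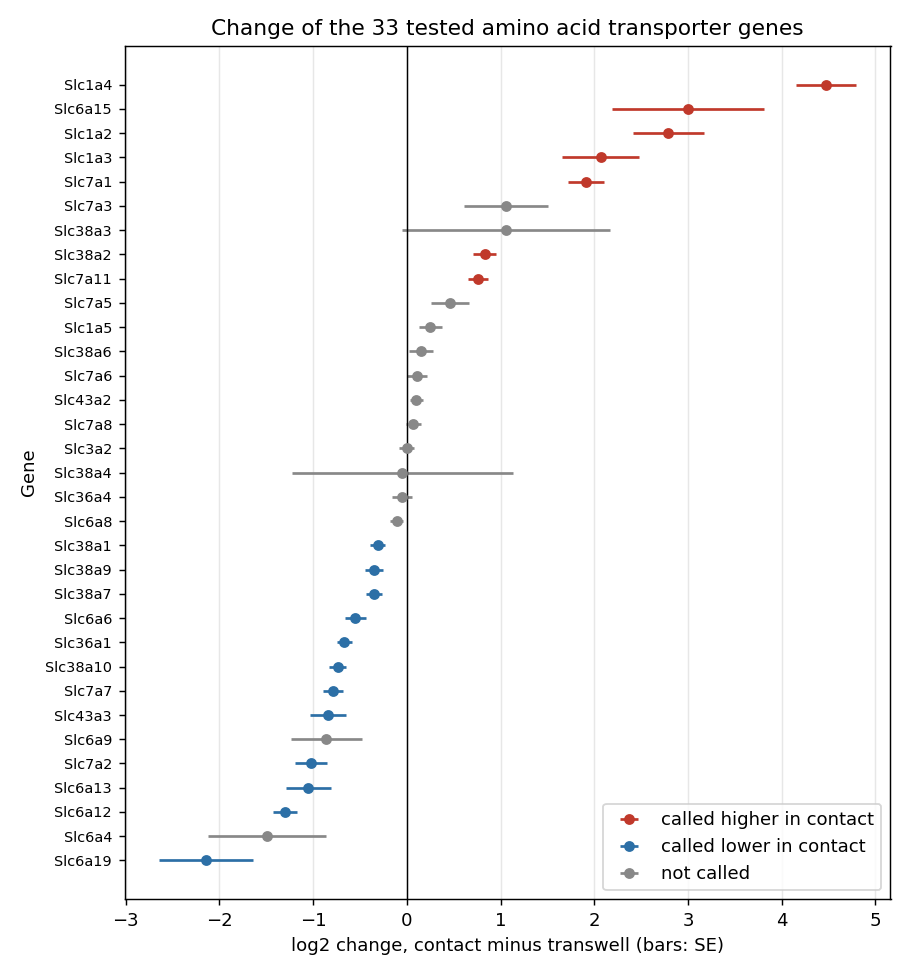
Log2 change between contact and transwell libraries for the 33 tested transporter genes, ordered by change, with bars of 1 standard error and colours for the edgeR call (n = 3 per group). The changes run from -2.14 for Slc6a19 to 4.47 for Slc1a4, and the 14 genes not called lie between -1.49 (Slc6a4) and 1.06 (Slc7a3 and Slc38a3).

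The heavy chain Slc3a2 (ENSMUSG00000010095) was the most abundant of these transcripts per length. It stood at 167.38, 155.21 and 163.19 FPKM in contact replicates 1 to 3 and at 162.81, 138.13 and 148.29 FPKM in transwell replicates 1 to 3. The groups overlapped, and the fitted log2 change was -0.0032 with a 95% interval of -0.19 to 0.18 (edgeR adjusted p = 0.982). Any change of Slc3a2 was thus small next to those of some of its light chains.

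Slc7a11 (ENSMUSG00000027737), the light chain that exchanges cystine for glutamate, stood at 45.73, 48.86 and 60.58 FPKM in contact and at 25.21, 29.32 and 30.18 FPKM in transwell libraries. Every contact library was above every transwell library. The change was 1.69-fold (log2 change 0.76 ± 0.11 SE, edgeR adjusted p = 5.9e-04), and it was lowest in contact replicate 1 and highest in replicate 3, with a ratio of 0.807 between contact replicates 2 and 3, where the epithelial markers had 1.75. Slc7a7 (ENSMUSG00000000958), which releases arginine and lysine in exchange for neutral amino acids, went the other way. It stood at 12.25, 9.65 and 12.09 FPKM in contact and at 18.89, 18.43 and 17.17 FPKM in transwell libraries (log2 change -0.79 ± 0.11, edgeR adjusted p = 3.6e-04). The groups did not overlap. Slc7a7 shares exonic bases with Oxa1l on the opposite strand, and no source used here says whether reads were counted by strand.

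Slc7a8, a carrier of neutral amino acids, was the most abundant light chain, at 79.28, 71.98 and 79.09 FPKM in contact and 71.08, 62.65 and 69.06 FPKM in transwell libraries. Its contact values all lay above the transwell values, but the fitted log2 change was 0.07 with a 95% interval of -0.11 to 0.25 (edgeR adjusted p = 0.548). Slc7a5 (LAT1), which takes up leucine and other large neutral amino acids, stood at 4.45, 5.20 and 3.35 FPKM in contact and 3.65, 2.72 and 2.34 FPKM in transwell libraries. These groups overlapped, and Slc7a5 was not called (log2 change 0.46, 95% interval 0.02 to 0.90, edgeR adjusted p = 0.0964). It was called without contact replicate 3 (0.61, adjusted p = 0.0332) or transwell replicate 1 (0.67, adjusted p = 0.0181), and its ratio between contact replicates 2 and 3 was 1.55. Slc7a6, a further light chain for cationic and neutral amino acids, averaged 6.42 ± 0.876 and 5.48 ± 0.335 FPKM (SD, n = 3; log2 change 0.11, edgeR adjusted p = 0.466).

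Shares within a library do not depend on how libraries are scaled, so the light chains were also set against each other. This and the other shares were chosen after the values were seen. Slc7a11 made up 30.9%, 34.1% and 37.6% of the summed light-chain FPKM in contact and 20.3%, 24.7% and 24.2% in transwell libraries. Slc7a7 made up 8.29%, 6.74% and 7.51% in contact and 15.2%, 15.5% and 13.8% in transwell libraries. Slc7a8 made up 51 ± 2.35% of it in contact (SD, n = 3), next to 55.2 ± 2.26% across the transwell. The groups did not overlap for Slc7a11 and Slc7a7 and overlapped for Slc7a8. A two-sided exact permutation test gave p = 0.1 for Slc7a11 and for Slc7a7, the smallest value that 3 against 3 libraries allow, and p = 0.2 for Slc7a8 (0.15, 0.15 and 0.257 adjusted over 9 such quantities). The summed light chains came to 0.931 ± 0.0523 of the Slc3a2 level in contact and 0.82 ± 0.0515 in transwell libraries, with non-overlapping groups (exact permutation p = 0.1, adjusted p = 0.15).

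**Figure D2:**
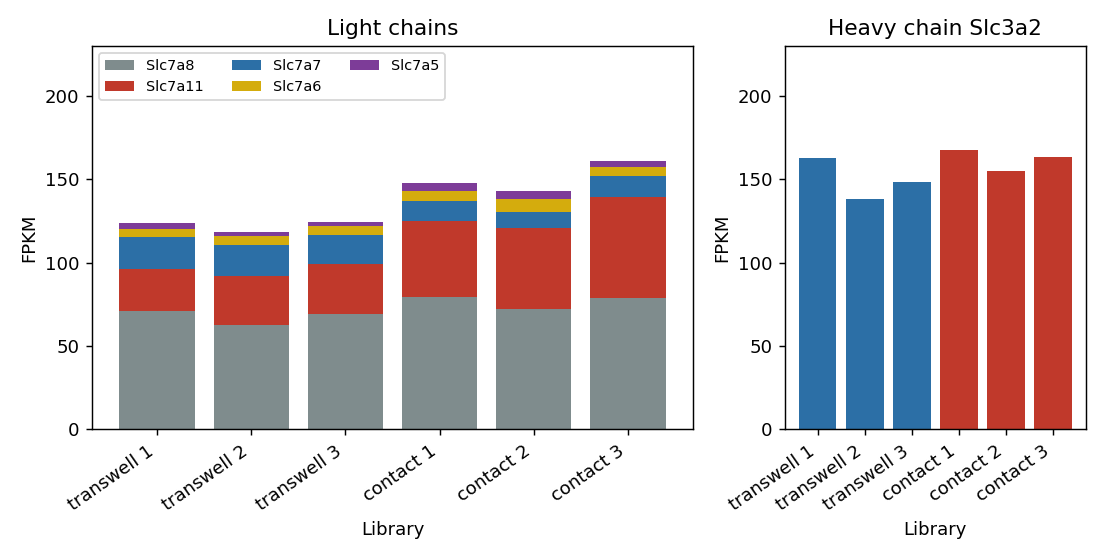
FPKM of 5 light chains, stacked (left), and of their heavy chain Slc3a2 (right) in each library. The Slc7a11 segment is larger and the Slc7a7 segment smaller in all 3 contact libraries, while Slc3a2 stays between 138.13 and 167.38 FPKM.

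The sequences around the transcription starts of 3 of the called genes are shown because they hold the same element. TGATGCAA is the core of the composite site that C/EBP and ATF4 proteins are known to bind in the amino acid response, and it was searched on both strands. The letters run from 120 bases before to 30 after a RefSeq start on GRCm38.p6, 5′ to 3′ on the gene's strand, with matches to TGATGCAA or its reverse complement in capitals. The windows lie at chr3:50443584-50443733, minus strand (Slc7a11), chr11:20332684-20332833, minus strand (Slc1a4) and chr14:54417915-54418064, minus strand (Slc7a7, 1 of 5 starts in the table). In the GENCODE M21 annotation Slc7a7 spans 54369442 to 54417780, so the window shown lies upstream of that span.
Slc7a11: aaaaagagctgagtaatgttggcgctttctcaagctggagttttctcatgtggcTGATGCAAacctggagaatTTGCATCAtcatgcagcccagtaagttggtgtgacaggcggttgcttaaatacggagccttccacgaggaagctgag
Slc1a4: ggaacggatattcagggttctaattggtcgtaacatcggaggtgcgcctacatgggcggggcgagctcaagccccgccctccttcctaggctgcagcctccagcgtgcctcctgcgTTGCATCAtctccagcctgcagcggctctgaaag
Slc7a7: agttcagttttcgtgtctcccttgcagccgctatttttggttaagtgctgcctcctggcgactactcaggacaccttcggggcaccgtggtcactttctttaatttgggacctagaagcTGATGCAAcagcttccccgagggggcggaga

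Slc7a11 holds 2 matches in opposite orientation, with first bases at -66 and -47 from the start, and Slc1a4 and Slc7a7 hold 1 each in the windows shown, at -4 and -1. The matches of Slc1a4 and Slc7a7 thus run past the start. In windows of 250 bases before to 50 after the start the element occurred in 0.895% of all 32851 windows and in 3 of the 23 tested transporter genes with a window, the called rises Slc7a11 and Slc1a4 and the called fall Slc7a7. A gene counted if any of its start windows held a match, so shares of genes and shares of windows are unlike measures. Of the other called rises with a window, Slc7a1 and Slc38a2 hold no match to it in this stretch. The antioxidant response element, TGACNNNGC on both strands, occurred in 12.4% of all windows and in 6 of the 23 genes, 2 called higher (Slc7a1 and Slc38a2), 2 called lower (Slc36a1 and Slc6a13) and 2 not called (Slc6a9 and Slc7a6). Over the 43 genes of the set with a window, TGATGCAA occurred in 3 and TGACNNNGC in 9. These matches are descriptions of letters, not binding sites.

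Among the cationic carriers the balance between Slc7a1 and Slc7a2 differed between the groups. Slc7a1 (CAT1, ENSMUSG00000041313), a broadly expressed carrier of arginine and lysine, stood at 5.72, 8.37 and 4.99 FPKM in contact and 1.76, 1.57 and 1.34 FPKM in transwell libraries. The groups were far apart, with contact replicate 2 highest, a 3.77-fold rise (log2 change 1.91 ± 0.19, edgeR adjusted p = 4.0e-05). The ratio between contact replicates 2 and 3 was 1.68 for Slc7a1, beside 1.75 for the summed epithelial markers. Slc7a2 (CAT2, ENSMUSG00000031596), the form induced in activated macrophages, stood at 0.51, 0.64 and 0.75 FPKM in contact and 1.05, 1.34 and 1.18 FPKM in transwell libraries, lower without overlap (log2 change -1.02 ± 0.17, edgeR adjusted p = 0.0012). Slc7a3 stayed at or under 0.33 FPKM in every library and was not called (log2 change 1.06, 95% interval 0.04 to 2.08, edgeR adjusted p = 0.0967). Slc7a1 made up 87.2%, 90.5% and 84.3% of the summed FPKM of these 3 genes in contact and 61.3%, 52.2% and 49.8% in transwell libraries (exact permutation p = 0.1, adjusted p = 0.15).

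The Slc38 carriers of the cell surface that take up alanine, serine and glutamine with sodium (system A) also differed in balance. Slc38a2 (SNAT2, ENSMUSG00000022462), known to be induced when amino acids run short, stood at 13.45, 16.27 and 15.11 FPKM in contact and 6.45, 8.90 and 7.95 FPKM in transwell libraries. That is a 1.78-fold rise without overlap (log2 change 0.83 ± 0.12, edgeR adjusted p = 4.0e-04), with a ratio of 1.08 between contact replicates 2 and 3. Slc38a1 (SNAT1) was slightly lower, at 3.88, 3.77 and 4.14 against 4.37, 4.62 and 4.55 FPKM (log2 change -0.31 ± 0.08, edgeR adjusted p = 0.00895), a call that ended in limma on log2(FPKM + 1) (adjusted p = 0.147). Slc38a2 made up 75.7%, 81.1% and 77.8% of the summed FPKM of Slc38a1, Slc38a2 and Slc38a4 in contact and 59.6%, 63.1% and 63.5% in transwell libraries (exact permutation p = 0.1, adjusted p = 0.15). Slc38a4 itself rested on single libraries, namely 41, 3 and 15 counts on the contact side and 0, 46 and 1 on the transwell side. Slc38a3, a glutamine carrier, had a like pattern, with 57, 12 and 15 against 0, 31 and 0 counts. Neither was called (log2 change -0.05 with edgeR adjusted p = 0.98 for Slc38a4 and 1.06 with 0.501 for Slc38a3), and without transwell replicate 2 both were (4.64 with edgeR adjusted p = 0.0173 and 7.66 with 0.00291).

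In the Slc1 family the carriers of neutral amino acids and of glutamate stood at very different levels. Slc1a5 (ASCT2), the main glutamine exchanger of many dividing cells, stood at 9.35, 10.79 and 8.31 FPKM in contact and 8.15, 6.41 and 7.54 FPKM in transwell libraries. It was not called (log2 change 0.25, 95% interval -0.03 to 0.52, edgeR adjusted p = 0.152), although its groups did not overlap in FPKM. Slc1a4 (ASCT1, ENSMUSG00000020142), which exchanges serine and alanine, stood at 2.70, 3.64 and 2.01 FPKM in contact and 0.15, 0.13 and 0.07 FPKM in transwell libraries, which hold 25 counts in all. It had the largest change of the 33 genes, 22.1-fold (log2 change 4.47 ± 0.32, edgeR adjusted p = 6.8e-06), and its ratio between contact replicates 2 and 3 was 1.81. The glutamate carriers Slc1a2 (log2 change 2.79 ± 0.38, edgeR adjusted p = 3.3e-04) and Slc1a3 (2.07 ± 0.41, edgeR adjusted p = 0.00336) rose too, but from 45 and 25 transwell counts to means of 0.467 ± 0.237 and 0.24 ± 0.0656 FPKM (SD, n = 3), and both calls ended after quantile normalization. Contact replicate 1 held 218 of the 404 contact counts of Slc1a2.

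**Figure D3:**
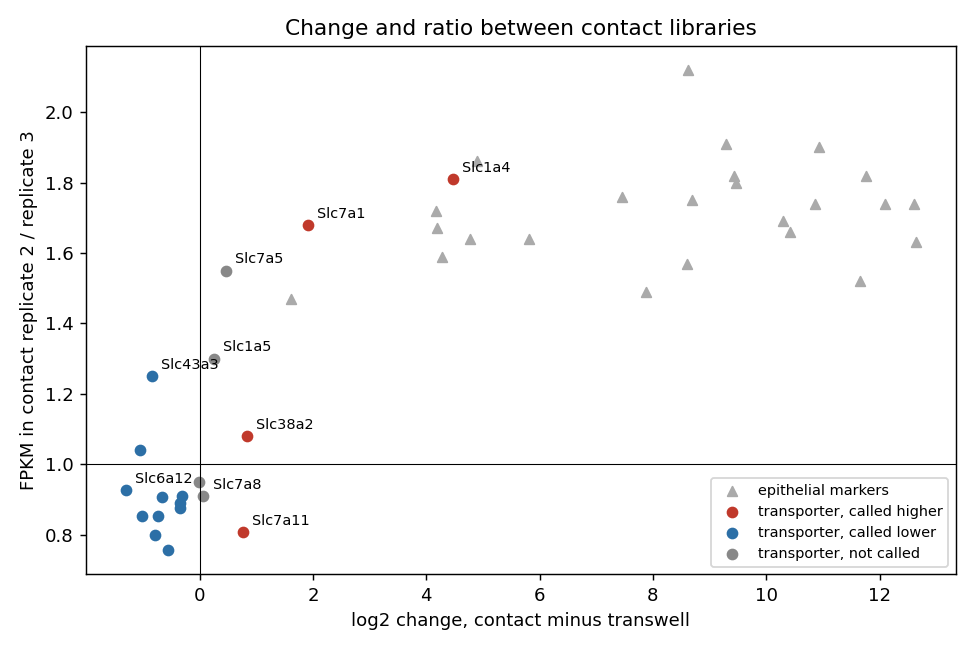
Log2 change between contact and transwell libraries (x axis) against the ratio of FPKM in contact replicate 2 to replicate 3 (y axis) for the 19 transporter genes described by library and for epithelial markers with a contact mean of at least 1 FPKM. Slc1a4 (1.81), Slc7a1 (1.68) and Slc7a5 (1.55) lie at the height of the markers, while Slc7a11 (0.807), Slc38a2 (1.08) and the genes called lower lie near or below 1, apart from Slc43a3 (1.25).

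The level of Slc1a4 and Slc7a1 was highest in contact replicate 2, then replicate 1, then replicate 3, which is the order of the epithelial markers. This order was seen in 3 of the 7 called rises (Slc7a1, Slc1a4 and Slc1a3), against 43.6% of all genes called higher and 25% of all tested genes. Over 3 libraries it is a description only. Among the 7 rises the ratio of replicate 2 to replicate 3 was 1.81 for Slc1a4, 1.76 for Slc1a3, 1.68 for Slc7a1 and 1.5 for Slc6a15, and 1.08 for Slc38a2, 1 for Slc1a2 and 0.807 for Slc7a11. Among the 12 falls it ran from 0.756 for Slc6a6 to 1.25 for Slc43a3.

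Of the transporters known from the lysosomal membrane, Slc36a1, Slc38a7 and Slc38a9 were called lower, the last 2 with calls that ended in some alternatives. Lysosomal carriers of other families went both ways. Mfsd12 (log2 change -1.12, edgeR adjusted p = 1.1e-05) and Slc15a3 (-0.47, edgeR adjusted p = 0.00167) were called lower. Slc15a4 was called higher (log2 change 0.30, edgeR adjusted p = 0.0161), and Ctns (-0.01), Slc66a1 (-0.16) and Slc17a5 (0.16) were not called. Slc15a4, Ctns, Slc66a1 and Slc17a5 were named after their values were seen. Slc36a1 (PAT1, ENSMUSG00000020261), which moves small neutral amino acids out of the lysosome with protons, stood at 8.95, 8.58 and 9.45 FPKM in contact and 13.31, 13.79 and 12.58 FPKM in transwell libraries. The groups did not overlap and the spread within each was small (log2 change -0.67 ± 0.08, edgeR adjusted p = 1.4e-04). Slc38a7, which exports glutamine from lysosomes, fell from 16.93, 15.20 and 14.75 to 13.72, 12.29 and 13.79 FPKM (log2 change -0.35 ± 0.09, edgeR adjusted p = 0.0137). That call ended without contact replicate 2 (-0.29, edgeR adjusted p = 0.0618). It also ended in limma on log2(FPKM + 1) (adjusted p = 0.0564) and on log2(FPKM + 0.1) (adjusted p = 0.0542). Slc38a9, the lysosomal arginine sensor upstream of mTORC1, stood at 1.51, 1.40 and 1.60 FPKM in contact and 1.60, 1.77 and 1.92 FPKM in transwell libraries, touching at 1.60 (log2 change -0.35 ± 0.10, edgeR adjusted p = 0.022). Its call ended without contact replicate 1 (-0.35, adjusted p = 0.0649), contact replicate 2 (-0.29, adjusted p = 0.0821) or transwell replicate 3 (-0.29, adjusted p = 0.0998), and in limma on log2(FPKM + 1) (adjusted p = 0.232). Slc36a4, of the same family as Slc36a1, was not called (11.1 ± 1.42 against 10.6 ± 1.12 FPKM, SD, n = 3; log2 change -0.05, 95% interval -0.30 to 0.20).

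The starts of Slc36a1 and Slc38a7 are shown because they hold the E-box CACGTG, the core of the site that the lysosomal regulators TFEB and TFE3 are known to bind. CACGTG reads the same on both strands, and matches are in capitals. The windows lie at chr11:55204220-55204369, plus strand (Slc36a1) and chr8:95853462-95853611, minus strand (Slc38a7) on GRCm38.p6.
Slc36a1: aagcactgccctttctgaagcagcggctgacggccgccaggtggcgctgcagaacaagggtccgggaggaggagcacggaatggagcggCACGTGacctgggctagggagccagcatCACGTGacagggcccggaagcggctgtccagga
Slc38a7: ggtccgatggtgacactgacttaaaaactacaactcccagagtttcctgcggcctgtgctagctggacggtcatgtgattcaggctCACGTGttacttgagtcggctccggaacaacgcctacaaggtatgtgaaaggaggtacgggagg

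Slc36a1 holds 2 matches, with first bases at -31 and -3 from the start, and Slc38a7 holds 1, at -34. CACGTG occurred in 7.15% of all windows and in 2 of the 23 tested transporter genes with a window, both called lower. That share was close to that of all windows, but a gene counted if any of its windows matched, so the measures differ. Over the 43 genes of the set with a window, 9 hold it, the other 7 being genes that were not tested.

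Of the Slc6 family, the carriers of betaine, GABA and taurine fell. Slc6a12 (ENSMUSG00000030109), which takes up betaine and the transmitter GABA, stood at 4.04, 3.54 and 3.82 FPKM in contact and 10.02, 7.48 and 8.33 FPKM in transwell libraries. The groups did not overlap, and the fitted difference was 2.45-fold (log2 change -1.30 ± 0.13, edgeR adjusted p = 4.6e-05). Its neighbour on chromosome 6, the GABA carrier Slc6a13, stood at 1.24, 0.76 and 0.73 FPKM in contact and 1.82, 1.74 and 1.65 FPKM in transwell libraries (log2 change -1.05 ± 0.24, edgeR adjusted p = 0.00775). Slc6a12 lies at 121343076 to 121365775 and Slc6a13 at 121300227 to 121337733 on GRCm38, both protein-coding on the plus strand. The abundant taurine carrier Slc6a6 fell from 69.29, 81.22 and 71.95 to 55.90, 46.71 and 61.81 FPKM (log2 change -0.55 ± 0.11, edgeR adjusted p = 0.0031), again without overlap.

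The creatine carrier Slc6a8 was not called (16.5 ± 0.586 against 16.4 ± 0.59 FPKM, SD, n = 3; log2 change -0.11, 95% interval -0.28 to 0.06). Slc6a19, a carrier of neutral amino acids known from gut and kidney, fell (log2 change -2.14 ± 0.50, edgeR adjusted p = 0.00792) with 17 contact and 60 transwell counts, and that call ended in limma on log2(FPKM + 1) (adjusted p = 0.0519). Slc6a15, which carries branched-chain amino acids and proline, had 54 contact counts and 5 transwell counts, all of the latter in replicate 1. Its rise (log2 change 3.0 ± 0.81, edgeR adjusted p = 0.0158) was not called without contact replicate 1 (2.85, adjusted p = 0.0533), contact replicate 2 (2.93, adjusted p = 0.0584) or transwell replicate 3 (2.44, adjusted p = 0.0679), and became 7.05 without transwell replicate 1. The glycine carrier Slc6a9 (log2 change -0.86, edgeR adjusted p = 0.103) and the serotonin carrier Slc6a4 (-1.49, edgeR adjusted p = 0.0929) were not called. They were called in 2 and 3 of the alternatives, Slc6a9 without contact replicate 2 (-1.31, adjusted p = 0.0291) and Slc6a4 without contact replicate 3 (-2.39, adjusted p = 0.0269) among them.

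Of the remaining genes, Slc43a2 (LAT4), which lets branched-chain and aromatic amino acids pass down their gradient, was among the most abundant, at 68.12, 61.04 and 66.73 FPKM in contact and 58.15, 55.84 and 55.07 FPKM in transwell libraries. It was not called (log2 change 0.10, 95% interval -0.06 to 0.26, edgeR adjusted p = 0.329), but was in limma on log2(FPKM + 1) (0.21, adjusted p = 0.0291). Slc43a3, a family member known as a purine base carrier, stood at 1.09, 1.15 and 0.92 against 2.16, 1.45 and 1.59 FPKM (log2 change -0.84 ± 0.19, edgeR adjusted p = 0.00728). Slc38a10 fell from 18.60, 17.41 and 17.17 to 11.58, 10.53 and 12.33 FPKM without overlap (log2 change -0.74 ± 0.09, edgeR adjusted p = 1.1e-04). Slc38a6 was not called (log2 change 0.15, edgeR adjusted p = 0.391). Besides Slc7a7, GENCODE M21 places a noncoding or unclassified gene of the opposite strand over exons of Slc38a10, Slc43a2, Slc38a9, Slc7a2, Slc6a6 and Slc1a2, and the coding genes B4galt2 and Ccdc24 over those of Slc6a9, whose reads cannot be told apart without strand.

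**Figure D4:**
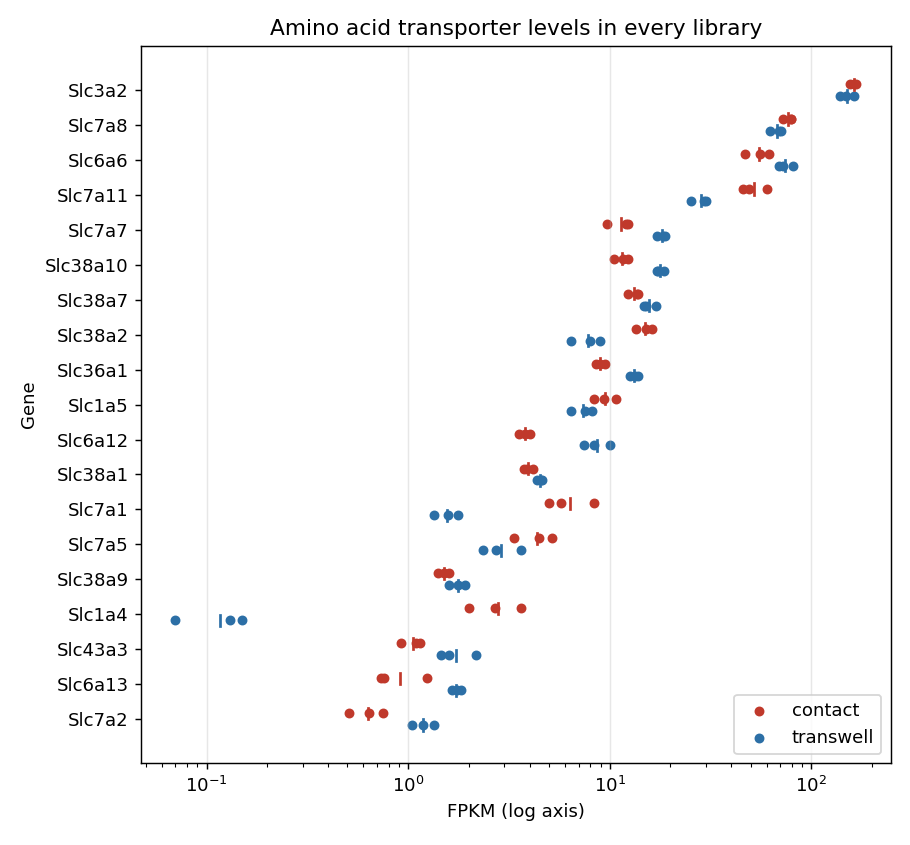
FPKM on a log axis of the 19 transporter genes described by library, with points for the 3 contact and 3 transwell libraries and bars at the group means. The levels run from 0.07 FPKM for Slc1a4 in transwell replicate 3 to 167.38 FPKM for Slc3a2 in contact replicate 1.

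Genes that respond to amino acid supply through the transcription factor ATF4 were called in 18 of 25 tested cases, 13 higher and 5 lower (72%, against 37.5% of all genes), with a median log2 change of 0.36 against 0.03 for all genes. Phgdh and Psat1, enzymes of serine synthesis, rose from 2.2 ± 0.773 to 10.7 ± 3.01 FPKM and from 2.49 ± 0.325 to 6.61 ± 1.55 FPKM (SD, n = 3), and Ddit4, an inhibitor of mTORC1, rose from 2.97 ± 0.544 to 12.3 ± 1.95 FPKM. Asparagine synthetase, Asns, named after its value was seen, rose from 4.48 ± 0.552 to 8 ± 2.05 FPKM. Their ratios between contact replicates 2 and 3 were 1.76 for Phgdh, 1.61 for Psat1, 1.26 for Ddit4 and 1.7 for Asns. Ddit3, the stress factor CHOP, fell from 9.98 ± 0.153 to 5.09 ± 0.448 FPKM (log2 change -1.09 ± 0.11, edgeR adjusted p = 4.8e-05), and Sesn2, a leucine sensor, fell (-0.71 ± 0.09, edgeR adjusted p = 2.9e-04). Atf4 itself was not called (134 ± 8.81 against 108 ± 7.79 FPKM, edgeR adjusted p = 0.0956). The list thus held genes called on both sides.

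Genes of arginine, glutamine and tryptophan metabolism were called on both sides as well, 7 of 27 tested genes higher and 6 lower (48.1% called). Among all tested genes 37.5% were called, 21.4% higher and 16.1% lower. Arg2, the mitochondrial arginase, rose from 14.56, 11.91 and 11.28 to 53.78, 54.22 and 58.32 FPKM (log2 change 2.02 ± 0.11, edgeR adjusted p = 1.6e-06), with a ratio of 0.93 between contact replicates 2 and 3. Arg1, the cytosolic arginase, fell from 45.1 ± 1.83 to 26 ± 1.05 FPKM. The polyamine genes Odc1 (24.2 ± 0.636 to 77.4 ± 19.6 FPKM) and Sat1 (75.2 ± 2.95 to 163 ± 14.6 FPKM) rose, with replicate ratios of 1.62 and 1.16. Nos2, named after its value was seen, fell from 0.98 ± 0.182 to 0.287 ± 0.0862 FPKM.

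Of 18 genes of the NRF2 response and glutathione synthesis, which uses the cystine that Slc7a11 brings in, 1 was higher, 6 were lower and 11 were not called (38.9% called, near the 37.5% of all genes). The one that rose was Nfe2l2, the gene of NRF2 (50.7 ± 4.6 to 136 ± 5.75 FPKM). Hmox1, Slc48a1 and Prdx1 fell, with log2 changes of -1.11, -1.18 and -0.67. The rate-limiting enzyme subunits of glutathione synthesis, named after their values were seen, were not called (Gclc 0.01 with edgeR adjusted p = 0.962 and Gclm -0.21 with 0.122). The NRF2 targets Nqo1 (-0.12), Txnrd1 (0.10), Srxn1 (0.06) and Gsr (0.14), also named after their values were seen, were not called either.

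Amino acid sensors and regulators of mTORC1 were called in 13 of 33 tested cases, 5 higher and 8 lower (39.4%, near the background of 37.5%), with a median of -0.12. Lamtor1, a lysosomal anchor of the complex (-0.48 ± 0.09), Tsc2, its inhibitor (-0.45 ± 0.08), and Sesn2 fell, and Seh1l rose (0.64 ± 0.10). The largest changes of the list were rises at low levels, named after their values were seen: Sesn3, a sestrin like Sesn2, from 0.22 ± 0.02 to 1.04 ± 0.162 FPKM (log2 change 2.13 ± 0.15), and the arginine sensor Castor1 from 1.48 ± 0.141 to 3.66 ± 0.445 FPKM (1.19 ± 0.20; SD of FPKM, n = 3). Of 19 cytosolic aminoacyl-tRNA synthetases, which load amino acids onto tRNA, 0 were higher and 5 lower (26.3%, where 16.1% of all genes were called lower and 37.5% in either direction), among them Wars (-0.59 ± 0.08) and Iars (-0.50 ± 0.08). Other carriers of amino acids and peptides were called in 11 of 20 tested cases, 4 higher and 7 lower (55%, against 37.5% of all genes). The lysosomal cysteine carrier Mfsd12 (30.1 ± 1.38 to 15 ± 1.34 FPKM), the mitochondrial aspartate and glutamate carriers Slc25a12 (-0.82 ± 0.09) and Slc25a22 (-0.73 ± 0.08) and the lysosomal peptide and histidine carrier Slc15a3 (-0.47 ± 0.08) were among the falls. The 4 rises, named after their values were seen, were Slc15a4, the peptide carrier Slc15a2 (1.08 ± 0.27), the mitochondrial ornithine carrier Slc25a15 (0.44 ± 0.10) and the vesicular glutamate carrier Slc17a7 (2.66 ± 0.52), the last at 0.53 ± 0.35 FPKM in contact.

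**Figure D5:**
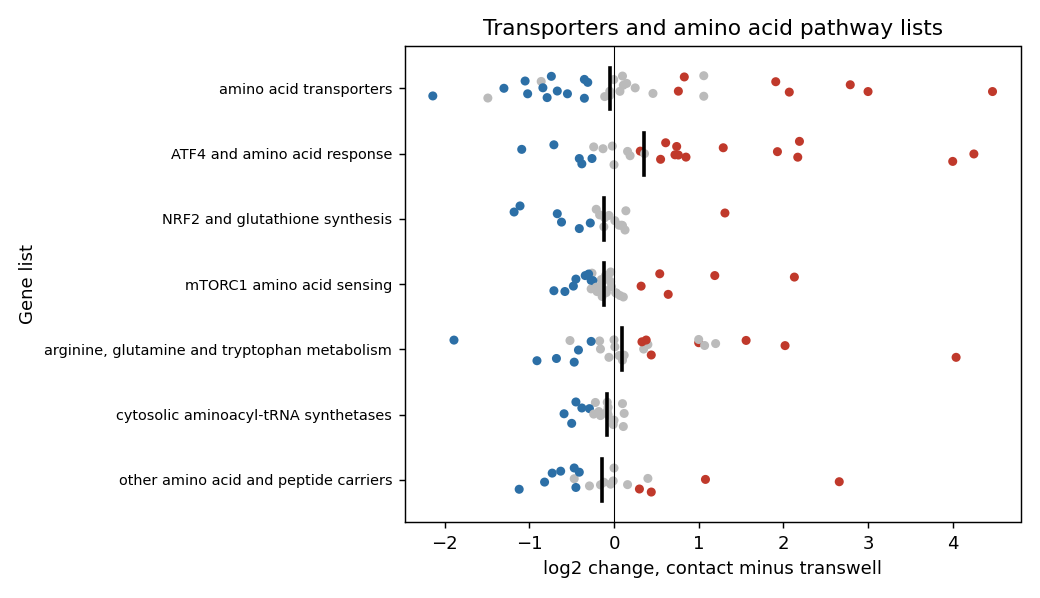
Log2 change between contact and transwell libraries for each tested gene of the transporter set and of 6 lists on amino acid use, with a black bar at each median and colour for the edgeR call (red higher in contact, blue lower, grey not called). The ATF4 list has the highest median, 0.36, and the other medians lie between -0.14 and 0.10.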

How the data were processed

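The authors deposited raw read counts and FPKM per Ensembl gene for 6 libraries, per the file headers. GRCm38 and mm10 are named as builds in the submitters' processing notes. The aligner, the counter and the setting for strand were not given in the sources used here. Of values with a count over 100, 99.93% of the deposited FPKM lay within 1% of the value from count, deposited exonic length and library total. Only 1472 of 52073 shared gene IDs had the same start and end as in GENCODE M21 (GRCm38), so positions come from GENCODE M21 and promoter sequences from RefSeq (GRCm38.p6), where 43 of the 61 genes had a window.

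All genes were fitted together with edgeR's quasi-likelihood test on the counts (filterByExpr with a minimum count of 10, TMM, two-sided, Benjamini-Hochberg over 14113 genes, threshold 0.05; edgeR 4.0.16, limma 3.58.1, DESeq2 1.42.0, R 4.3.3, matplotlib 3.10.9). Log2 changes are contact minus transwell, with SE as the change over the square root of F. On simulated counts for contact against transwell with 14113 genes it found 33 of 67 simulated 1.5-fold changes, 57 of 67 at 2-fold and 64 of 66 at 4-fold. False calls made up 7.78%. Only 200 genes were changed there, with the same relative spread between replicates for every gene, while 5286 genes were called in the data. These rates therefore do not describe the fit of the real data.

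Transporters were described by library if called and averaging 1 FPKM or more in the group where they were higher, or if on a list of 11 genes given always. From each pathway list up to 4 called genes with the largest change and at least 5 FPKM were named. Members and lists were chosen with earlier results of these data known. Values of some genes of the set are not reported here. Replicate pairs differed by a chi-square of 5.895 to 22.75 per degree of freedom, so none agreed within sampling noise. Alternatives were other filters, scalings and tests, limma on FPKM, a replicate block, and each library left out.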

Additional observations from a re-analysis of the deposited data

How the results depend on the processing

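Over 16 alternatives the number of called transporters lay between 14 and 24. With each library left out it lay between 17 and 22 in all, 6 and 10 higher and 11 and 13 lower. The number of rises was 11 with no filter beyond 1 count, and 3 with only genes of at least 1 FPKM in transwell libraries, which favours falls. The median log2 change of the transporters, -0.05, moved by more than the spread between contact libraries to 0.12 with no filter, 0.09 with at least 30 counts, 0.06 and 0.12 in limma on log2(FPKM + 1) and log2(FPKM + 0.1), and lay between -0.03 and 0.08 with a library left out. The median of all genes moved by 0.11 in limma on log2(FPKM + 0.1). Of all genes 1860 were higher with the transwell level filter, and 1422, 1442 and 3418 were lower in limma on log2(FPKM + 1), log2(FPKM + 0.1) and quantile-normalized values. Of the 15 named genes that were called, 12 to 15 were called the same way in each alternative. Slc6a15 became -0.0027 after quantile normalization and Slc38a4, at -0.05 in all libraries, ranged from -1.14 without contact replicate 1 to 4.64 without transwell replicate 2. The cause was not tested beyond what each alternative changes. With a replicate block 20 transporters were called, 8 higher and 12 lower, and 5124 of all genes, and Slc7a5 was then called (0.46, edgeR adjusted p = 0.0322). Deviations of same-numbered libraries from their group means had correlations of -0.445 to 0.0557. With 3 libraries per group these correlations cannot show whether the numbers pair the libraries. Leaving out a library, tried for the shares after the data were seen, kept the Slc7a11 share difference between 9.45 and 12.8 percentage points and that of Slc7a1 between 30.6 and 36.3. Slc6a15 and Slc6a19 rest on 59 and 77 counts in all, and what depth adds to their changing calls was not tested.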
